A study of Homo sapiens with 4 samples.

Results

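ELAVL1 is the gene of HuR, the RNA-binding protein that was immunoprecipitated. Of the 14149 peaks in the list from MDA-MB-231 cells, 11 were assigned to this gene. MDA-MB-231 is a human triple-negative breast cancer line with a mesenchymal character, for which the labels name no treatment. HuR and the RNA held by it were pulled down from lysates by a mouse anti-HuR antibody (2 samples), mouse IgG served as the control (2 samples), and libraries were made from it without poly(A) selection. The list gives 1 value per peak for the whole series, so it holds no separate level for a replicate or for IgG, no spread and no test of HuR against IgG. A peak was assigned to ELAVL1 when the RefSeq transcript named in its annotation was NM_001419, whatever the gene column of the list said. Each peak was 347 bp long and carried a score that the peak caller HOMER gave it, on a scale that the sources do not state. Whether the score takes IgG into account is not stated, so it is not read here as enrichment over IgG.

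HuR recognises U-rich and AU-rich elements, mostly in 3′-UTRs, through RNA recognition motifs, and binding is known to affect the stability, translation and processing of the target mRNA. Its own mRNA is among its described targets. ELAVL1 transcripts are known to end at more than one poly(A) site, so that they carry 3′-UTRs of different length, and control by HuR of its own expression has been linked to U-rich sequence in this 3′-UTR. The canonical transcript lies on the − strand at chr19:7958573-8005641 (hg38), has 6 exons and an mRNA of 6054 bases, and 978 of these bases are coding (the stop codon is counted with the 3′-UTR). The start codon is in exon 2. The 3′-UTR of 4913 bases makes up 81.2% of the mRNA and lies wholly in exon 6.

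Stretches of the 3′-UTR are shown first because the placement of the peaks relative to U-rich and AU-rich sequence is the question that the gene raises. All are from hg38, written 5′ to 3′ as DNA on the − strand, which is the sense strand of ELAVL1. The U-rich stretch is the 30-base window with the most T in the part that the 2 peaks of the 3′-UTR share, at chr19:7963078-7963107, with its run of 5 T in capitals. The GC-rich stretch is the 30-base window with the most G and C in that same part, at chr19:7962879-7962908. The AU-rich stretch lies outside both peaks at chr19:7961837-7961866, and its capitals mark 4 copies of ATTTA, the core of AU-rich elements.
U-rich stretch inside the peaks: ttttagttttagTTTTTaatctaaagatgt
GC-rich stretch inside the peaks: gggccaccactggggccgggggccacgggc
AU-rich stretch outside the peaks: ATTTAtacctATTTAtgtATTTATTTAttg

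Exon 3, the shortest exon of the gene with 104 bp, is shown because its peaks overlap it but were annotated in the introns on either side. It is printed with 20 bp of each intron, at chr19:7981063-7981206, with the coding exon in capitals.
Exon 3: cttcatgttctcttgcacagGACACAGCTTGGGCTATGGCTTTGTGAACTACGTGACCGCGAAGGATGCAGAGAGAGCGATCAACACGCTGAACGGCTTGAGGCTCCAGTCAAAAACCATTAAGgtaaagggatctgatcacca

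The 11 peaks formed 6 groups of overlapping peaks, 1 at each of the 6 exons. The lowest score was 66.6, the median 375.9 and the highest 812.0, and all 11 were at or above the median of the list, which was 34.0. By the deposited classes 8 peaks were in introns, 1 was in a coding exon and 2 were in the 3′-UTR. By strand 6 lay on the − strand of the gene and 5 on the + strand, and these had summed scores of 2538.5 and 1982.9. No interval is set on this split, because peaks of a single gene are not replicates and most came as pairs of opposite strands. Over the 13711 peaks of the list with a placed host gene, 53.2% were on the strand of the gene (Wilson 95% interval 52.4 to 54.0%). For peaks annotated in 3′-UTRs the share was 59.0% (56.8 to 61.1%). Both intervals take peaks as independent, although many peaks of the list also came as pairs or shared a gene, so they do not measure the spread between genes. The library kit does not mark strand, and why these shares lay above an even split was not tested.

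**Figure D1:**
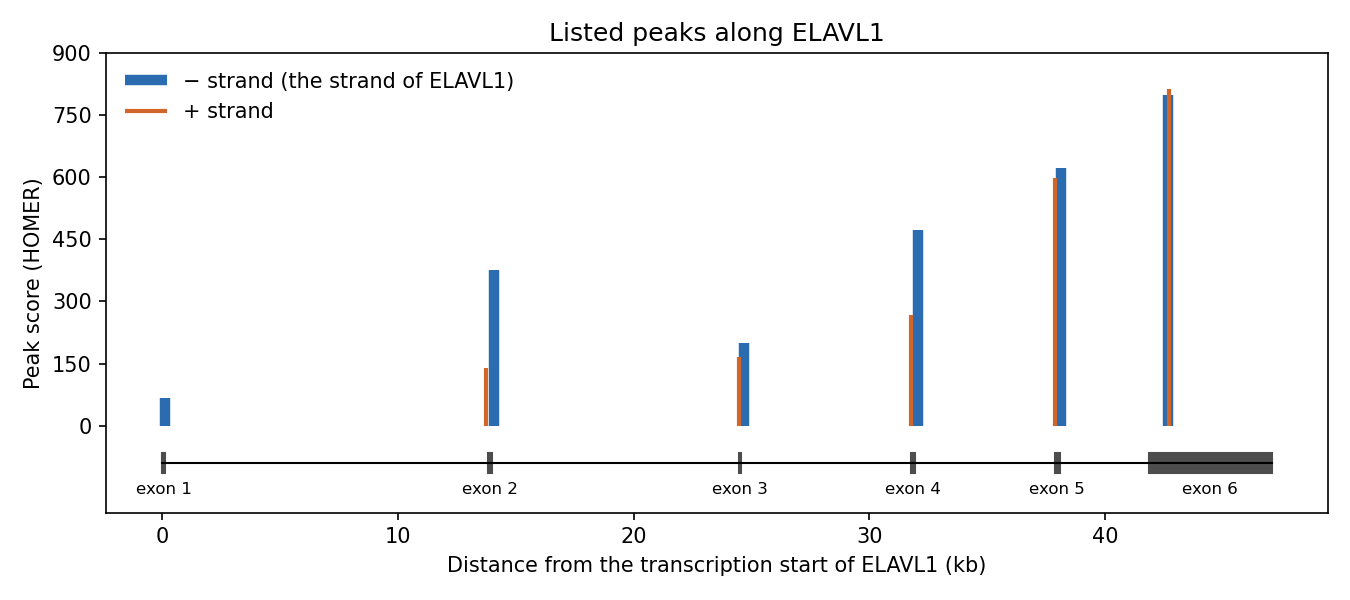
Peak score (vertical axis, HOMER's own units) of the 11 ELAVL1 peaks against the distance of the peak centre from the transcription start (horizontal axis, kb), with wide blue bars for the − strand, narrow orange bars for the + strand and exons as boxes below. Every exon was overlapped by a peak, and scores reached 812.0 in exon 6 against 66.6 at exon 1.

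The highest scores of the gene were in the 3′-UTR. The + peak at chr19:7962787-7963133 scored 812.0, which was rank 207 of all peaks and rank 60 of the 2062 peaks annotated in a 3′-UTR. The − peak at chr19:7962809-7963155 scored 799.5, rank 216 of all peaks and rank 64 in that class. The 2 centres were 22 bp apart and the windows shared 325 bp, so they mark the same stretch of RNA. Their focus ratios, a fraction that describes how the reads of a peak are placed around its centre, were 0.551 and 0.549, close to the list median of 0.542.

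Exon 5, a wholly coding exon of 226 bp, had the next pair. Its + peak at chr19:7967612-7967958 scored 597.8 and was the only one annotated in a coding exon, where it held rank 63 of 1778. Its − peak at chr19:7967359-7967705 scored 623.3 and was annotated in intron 5. The pair stood below the 3′-UTR peaks and above every peak further 5′.

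At exon 4 the − peak, chr19:7973394-7973740 in intron 4, scored 472.8. The + peak, chr19:7973718-7974064 in intron 3, scored 267.7. At exon 3 the − peak, chr19:7980787-7981133 in intron 3, scored 200.4. The + peak of exon 3, chr19:7981016-7981362 in intron 2, scored 166.2, so this short exon had the pair with the lowest mean score. At exon 2, which holds the start codon, the − peak at chr19:7991390-7991736 in intron 2 scored 375.9 and the + peak at chr19:7991726-7992072 in intron 1 scored 139.2.

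Exon 1, a non-coding exon in a CpG island by the detailed annotation, had a single peak. It lay on the − strand at chr19:8005317-8005663, was annotated in intron 1 with its centre 5 bp from the exon, covered all 147 bp of exon 1 and scored 66.6, rank 4240 of all peaks. Its focus ratio of 0.904 was the highest of the gene and above the upper decile of the list, 0.667, whereas the + peak of exon 2 had the lowest at 0.270, under the lower decile of 0.429. The window of the exon 1 peak had a GC content of 85.3%, against a median of 66.3% for the windows of 447 peaks annotated at promoters.

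From exon 3 to the 3′-UTR the score was higher at each following exon on both strands. Exon 2 broke this order on the − strand only, with 375.9 against 200.4 at exon 3. Mean scores per exon were 66.6, 258, 183, 370, 611 and 806 from exon 1 to exon 6. The 9 peaks whose nearest exon was one of exons 1 to 5 had 64.4% of the summed score of the gene. These exons make up 13.5% of the mRNA, but the windows of the peaks also hold intron sequence, so the shares are not like measures. The 3′-UTR had 35.6%. By the deposited classes, introns held 51.1% and the coding exon 13.2%. Over all host genes together, peaks annotated in 3′-UTRs held 25.3% of the summed score. Among the 532 genes with at least 8 peaks the median share was 18.4%, with quartiles of 0 and 33.2%, and the highest peak was in the 3′-UTR in 219 of them, or 41.2%. The most 5′ peak was also the lowest, as in ELAVL1, in 28.4% of the 529 of these genes that could be placed.

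**Figure D2:**
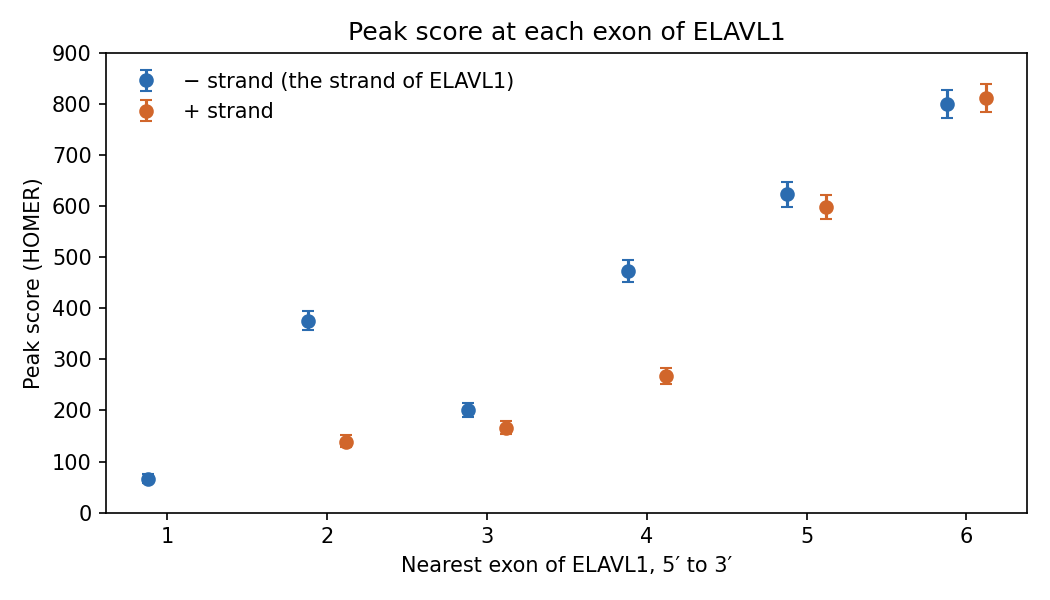
Peak score (vertical axis, HOMER's own units) at each ELAVL1 exon from 5′ to 3′ (horizontal axis), with − strand peaks in blue and + strand peaks in orange. Error bars are exact Poisson 95% intervals that hold only if 1 score step is 1 read, and the strands stand apart at exons 2, 3 and 4 and overlap at exons 5 and 6.

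Counting error could be set beside these scores because low scores of the list fell on a regular grid. Of the 11121 scores under 100, 98.6% lay within 0.0505 of a whole multiple of 0.2447, where scores spread evenly would give 41.3%. A step may be the worth of a single read, which the authors did not state, and on that reading the ELAVL1 peaks rested on 272 to 3318 reads. The + peak of the 3′-UTR then had an exact Poisson 95% interval of 785 to 840 and the − peak 772 to 827, so these 2 scores were not distinguishable. At exon 5 the − score was 1.04 times the + score (exact binomial 95% interval 0.986 to 1.10), which also did not separate them. The ratio was 1.77 at exon 4 (1.64 to 1.90), 1.21 at exon 3 (1.09 to 1.34) and 2.70 at exon 2 (2.45 to 2.98). Over 3415 pairs in the list, the log2 ratio of the gene strand to the other strand had a median of 0.16 with quartiles of -0.03 and 0.42, and the gene strand was higher in 71.6% of them. The ELAVL1 values were above these quartiles at exon 2, with 1.43, and at exon 4, with 0.82. They were within them at exon 3, with 0.27, at exon 5, with 0.06, and in the 3′-UTR, with -0.02. These intervals cover counting error only, since reads without molecular identifiers are not independent molecules.

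The 8 peaks annotated in introns all overlapped an exon of ELAVL1, and no centre was more than 158 bp from one. In 10 of the 11 peaks the pattern was a pair of opposite strands at the same exon. At exons 2 to 5 the centre of the − peak lay 3′ of the centre of the + peak by 229 to 336 bp. Over the pairs of the list, the + centre minus the − centre in genome coordinates had a median of 328 bp, with quartiles of 203 and 352 bp. This offset does not follow the strand of the gene, and in host genes on the + strand it puts the − peak 5′ of the + peak. Of the − peaks in host genes, 49.7% had a + peak of the same gene within 1000 bp. Moving each window 173 bp back against its own strand put 6 of the 11 centres in coding exons, 2 in the 3′-UTR and 2 in introns, and the exon 1 peak just outside the transcript. Moved forward by 173 bp, 9 centres were in introns and the other two stayed in the 3′-UTR. Of the 8 peaks annotated in introns, 6 thus left the intron when moved back. The centres of the + peaks of exons 3 and 4 were in introns in all 3 placements. Their listed windows nevertheless covered these exons whole, and a move of 173 bp passes over exons of 104 and 154 bp. Smaller moves were not tried. The 3′-UTR pair stayed in the 3′-UTR in all 3 placements. Whether HuR bound intron sequence of ELAVL1 was not tested.

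**Figure D3:**
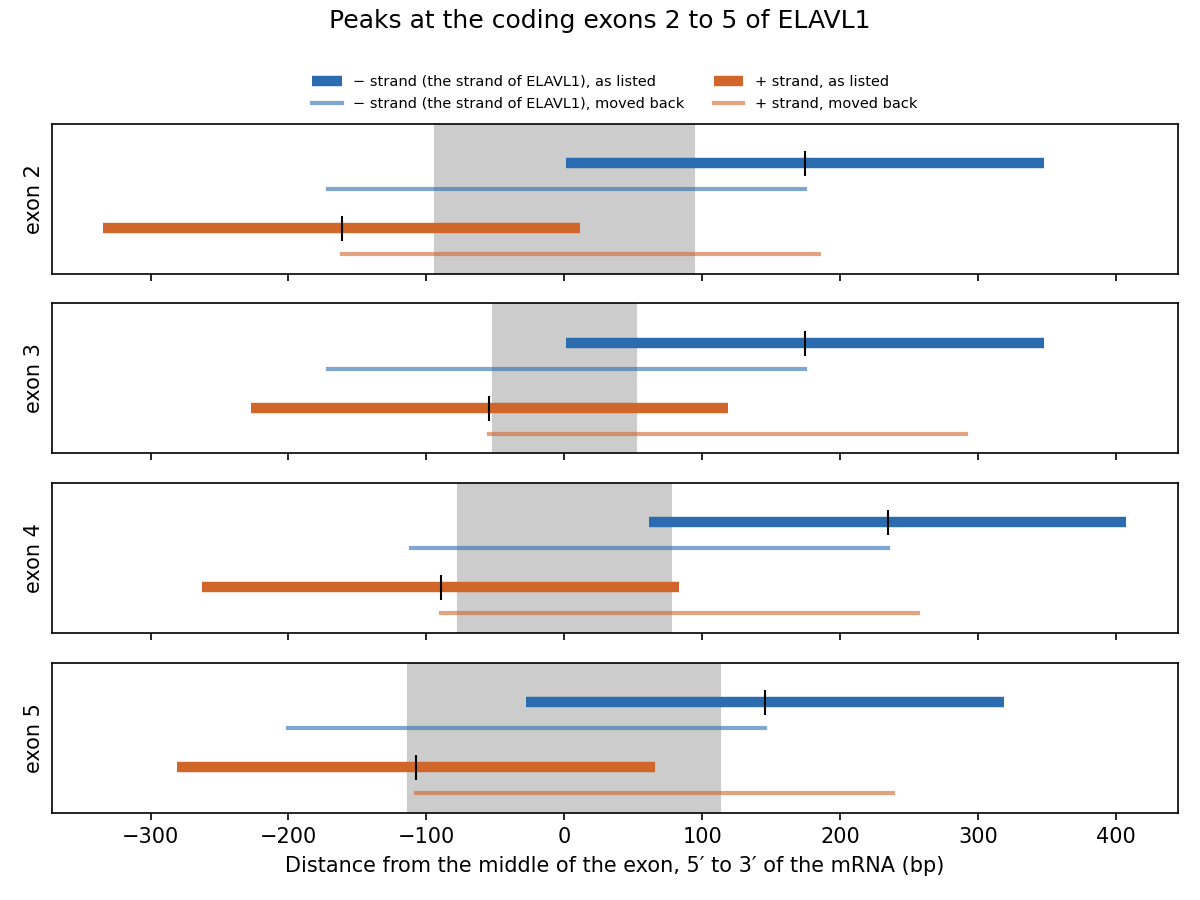
Windows of the paired peaks at coding exons 2 to 5, each against the distance from the middle of its exon (horizontal axis, bp, 5′ to 3′), with the exon shaded, listed windows as thick bars with the centre ticked and windows moved 173 bp back as thin bars. At every exon the centre of the − window lies 3′ of the centre of the + window, by 229 to 336 bp. The listed windows of each pair share 11 to 118 bp, and the + windows cover all of exons 3 and 4.

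The 2 peaks of the 3′-UTR covered bases 331 to 699 counted from the stop codon, or 7.51% of the 3′-UTR. No peak was listed in the 4214 bases that follow, which are 85.8% of it, nor over the 322 coding bases of exon 6. The centres lay at 504 and 526 bases, 10.3% and 10.7% of the way along. In the other 198 genes with a 3′-UTR of at least 4000 bases and a peak lying wholly within it, the 298 peaks had a median position of 15.4%, with quartiles of 8.34 and 32.2%, and 32.9% of them lay nearer to the stop codon than in ELAVL1. Peaks in long 3′-UTRs were thus mostly in the first part, and the ELAVL1 pair lay within the quartiles of these positions. The median number of peaks in such a 3′-UTR was 1.

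The AU-rich pentamer ATTTA was absent from both windows. The sense strand of the 3′-UTR held 13 copies, overlapping matches included, and all lay beyond the peaks, the nearest 152 bases past them. The densest group had 5 copies in 39 bases, at bases 1608 to 1646, and each of them lay within a copy of the heptamer TATTTAT. This group, part of which is printed above as the AU-rich stretch, began 909 bases past the peaks. Of all 4567 windows of 347 bases in this 3′-UTR, 55.8% held ATTTA. Across the list, 1736 peak windows fell entirely inside a 3′-UTR and 53.9% of them held it, so windows without it were common. Moved 173 bp back, the + window held 1 copy and the − window 0.

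Runs of 5 T, written TTTTT and counted with overlaps, were found 45 times in the 3′-UTR. Only 1 lay in the peaks, inside both windows and within the U-rich stretch printed above. Of the 3′-UTR peak windows across the list 79.0% held such a run, and 53.3% of all windows in the ELAVL1 3′-UTR did. The peak windows were rich in G and C, with 54.5% for the + peak and 54.8% for the − peak, where the whole 3′-UTR had 43.8%. These values were higher than those of 95.5% and 95.8% of the other 3′-UTR peak windows, whose median was 37.5%. The GC-rich stretch shows the base composition of that part, with 26 of its 30 bases G or C. Moved back, the − window had 38.9% and the + window 57.1%. Binding by HuR at a base was not resolved by these windows, and a motif match or its absence is a description of the sequence only.

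**Figure D4:**
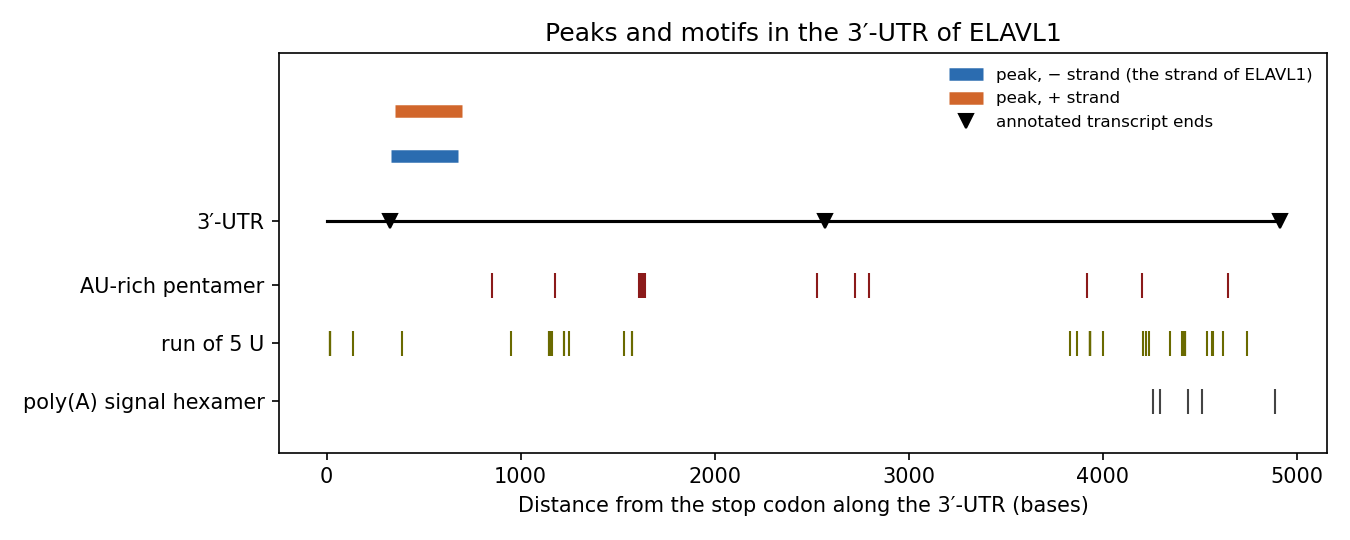
The 3′-UTR of ELAVL1 by distance from the stop codon (horizontal axis, bases), with the 2 peak windows above it, ends of annotated transcripts as triangles, and rows of ticks below for AU-rich pentamers, runs of 5 U and the poly(A) signal hexamer. Both peaks lie within bases 331 to 699, while all 13 pentamers and the dense group at 1608 to 1646 lie further 3′.

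Annotated transcript ends give further landmarks. GENCODE has a protein-coding transcript that ends at base 327 of the 3′-UTR, just 5′ of both peak windows, another that ends at base 2569, and the canonical end at base 4913. A further annotated protein-coding transcript ends before the 3′-UTR starts. The peaks thus lay beyond the end of the shortest annotated 3′-UTR and inside the longer ones. The hexamer AATAAA, the usual poly(A) signal, occurred 5 times in the 3′-UTR, all at bases 4260 to 4894, and 0 times in the peaks. None lay 5′ of the ends at bases 327 and 2569, and whether these ends are poly(A) sites was not tested. Which transcripts these cells made was not tested. A tandem repeat, in which runs of 30 bases occur up to 5 times, spanned bases 2029 to 2182 and began 1329 bases past the peaks. Whether reads of the repeat were kept by the aligner is not stated. Of 5928 different 30-base words of the mRNA, 0 of those in coding sequence were found in transcripts of other genes on either strand, and the 474 found elsewhere all belonged to ENSG00000269813, a long non-coding RNA on the opposite strand of the 3′-UTR. That region had no peak.

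ATTTA was present in 1 of the 9 windows at exons 1 to 5, that of the + peak of exon 2, while 55.6% of the intron windows and 35.7% of the exon windows of the list held it. TTTTT was present in 3 of the 9, namely the + and − windows of exon 2 and the + window of exon 5 with 3 matches. In the list 73.3% of intron windows and 48.0% of exon windows held it.

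The gene column of the list hid part of these peaks. It named ELAVL1 for 5 peaks, those at exons 1 to 3, and TIMM44, the neighbouring gene for a mitochondrial import protein, for the 6 peaks at exons 4 to 6. All 6 peaks that the column gave to TIMM44 in the whole list were ELAVL1 peaks, and TIMM44 hosted 0 peaks by its own transcripts. The column follows the nearest transcription start, and for the 3′-UTR pair the list gave distances of -19137 and -19159 bp to that start, where a negative value means upstream of it. By the gene column alone, the highest ELAVL1 score was 375.9 rather than 812.0.

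Among 3312 host genes ELAVL1 ranked 63 by its highest score, between neighbours at 829 and 805, both within the counting interval of the ELAVL1 peak given above. It ranked 49 by summed score, which was 4521.4 or 0.315% of the list, and 241 by number of peaks. Divided by exon length its summed score was 747 per kb, rank 115 of 3268. The median host gene had 2 peaks, a highest score of 34.0 and a summed score of 72.0. Every exon of ELAVL1 was overlapped by a peak, which was so in 11 of 228 host genes with 6 exons, or 4.82%, where the median was 2 exons. These genes were not matched to ELAVL1 in number of peaks, so the share does not separate exon coverage from its high peak count.

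Compared with MSI2, the gene of the RNA-binding protein Musashi 2, ELAVL1 had fewer peaks and higher scores. MSI2 had 19 peaks with a highest score of 164.7 and 20.8% of its summed score in the 3′-UTR. AXL, a receptor tyrosine kinase gene, had 21 peaks with a highest score of 2768.7 and 19.3% in the 3′-UTR. CANX, the gene of the chaperone calnexin, had 19 peaks with a highest score of 3376.1 and 21.6% in the 3′-UTR. The 35.6% of ELAVL1 was the highest of these 4 shares. In how the score was divided between 3′-UTR, exon, intron and other classes, the 3 genes most like ELAVL1 among the 532 with at least 8 peaks were LCLAT1, OSBP and TMX1, at Euclidean distances of 0.00955, 0.0137 and 0.0141 between shares written as fractions. LCLAT1 had 13 peaks, OSBP 9 and TMX1 11, with highest scores of 246.7, 164.4 and 983.0 and 3′-UTR shares of 36.2%, 35.5% and 34.7%. Likeness was taken over the 4 classes of 1 pooled list and not over samples.

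Genes around HuR were looked up as 5 lists of known relatives, partners and regulators. Of 40 such genes other than ELAVL1, 15 hosted a peak, or 37.5% (Wilson 95% interval 24.2 to 53.0%), where 15.3% of 20007 protein-coding genes did. These genes were chosen as known partners and many are active in most cells, and neither expression nor length was taken into account, so no difference from other genes is claimed. The other Hu proteins ELAVL2, ELAVL3 and ELAVL4, which are mainly neuronal, had 0 peaks.

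Among 10 genes of proteins that bind AU-rich or U-rich elements, 4 hosted a peak. ZFP36L1, which promotes decay of AU-rich mRNAs, had 3 peaks, all in its 3′-UTR, the highest at chr14:68789335-68789681 with a score of 415.3. CELF1, a GU-rich element binding protein, had 13 peaks up to 218.0, and HNRNPC, which binds U-runs in nuclear RNA, had 2 up to 201.6. TIAL1, a translational repressor, had 2 peaks up to 73.4. HNRNPD, KHSRP, TIA1, ZFP36, ZFP36L2 and PTBP1 had 0.

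Of 7 genes for HuR ligands and transport partners 4 hosted a peak. SET, a phosphatase inhibitor and HuR ligand, was the only gene of the lists with a higher score than ELAVL1, at 2136.6 on chr9:128693811-128694157 in an exon. XPO1, the export receptor, had 1 peak of 230.3, and the import receptors TNPO1 and TNPO2 had highest scores of 201.2 and 81.5. ANP32A, ANP32B and KPNA2 had 0. SET and HNRNPC have near-identical copies elsewhere in the genome, and reads could have been split between copies, so their scores are uncertain.

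Of 9 genes for enzymes that modify or degrade HuR, 3 hosted a peak. MDM2, a ubiquitin ligase, had 10 peaks with a highest score of 157.1. PRKCA and BTRC had highest scores of 17.9 and 17.1, under the median of host genes. CARM1, CHEK2, CDK1, PRKCD, PARP1 and JAK3 had 0.

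Of 11 genes for 3′-end processing, the step that sets the length of a 3′-UTR, 4 hosted a peak. PABPN1, the nuclear poly(A)-binding protein, had 2 peaks, the higher in its 3′-UTR at chr14:23325570-23325916 with 755.2, and its exons are shared with the readthrough gene BCL2L2-PABPN1, which makes the host uncertain. NUDT21, a cleavage factor subunit that affects the choice of poly(A) site, had 3 peaks, the highest at chr16:56431727-56432073 in its 3′-UTR with 466.9. CPSF2 and CSTF1 had highest scores of 97.9 and 83.2, and the other 7 genes had 0. A gene without a peak is not shown to be unbound, because the list is a selection of the called peaks. Per chromosome the peaks carry running numbers, and on chromosome 19 those of ELAVL1 ran from 6 to 491, and 164 of the first 491 numbers were in the list.

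**Figure D5:**
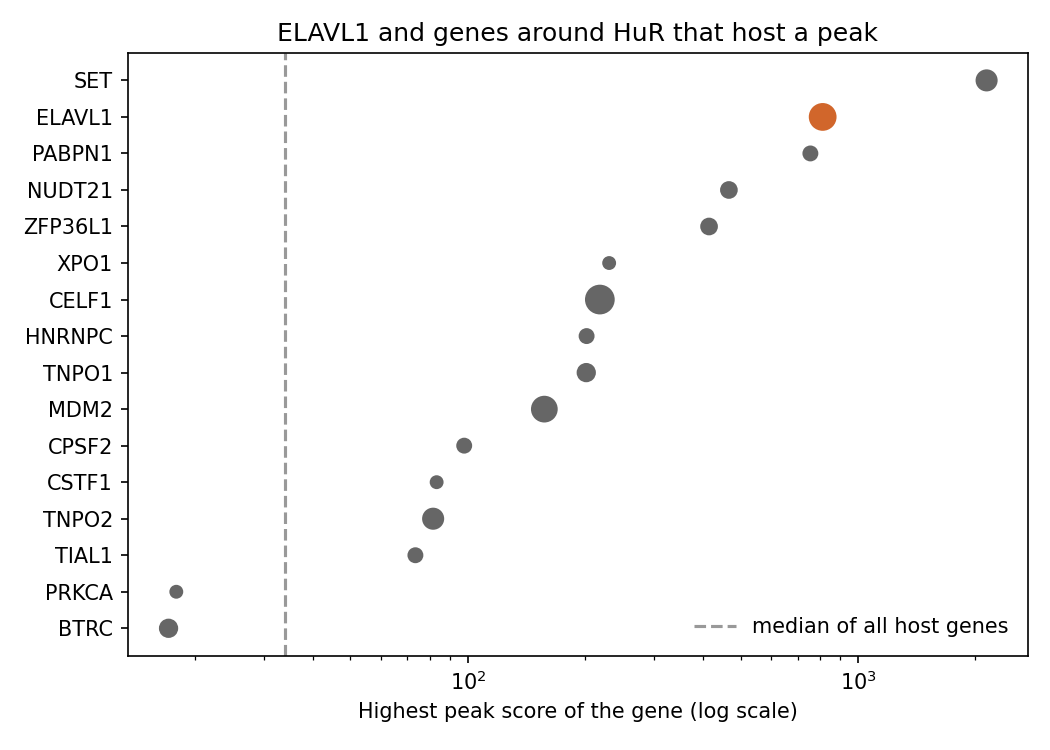
Highest peak score (horizontal axis, log scale, HOMER's own units) of ELAVL1 in orange and of the 15 other genes around HuR that hosted a peak in grey, with point area growing with the number of peaks and a dashed line at the median of all host genes, 34.0. Only SET, at 2136.6, lies above ELAVL1 at 812.0.

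The cell line could not be checked by expression, since a list of peaks from immunoprecipitated RNA does not measure it. Of the mesenchymal markers, AXL had 21 peaks and CD44 had 13 with a highest score of 769.6, while VIM had 0. ESR1, PGR and CDH1, genes low in triple-negative mesenchymal cells, had 0 peaks each. Only 15.3% of 20007 protein-coding genes hosted a peak, so a gene without a peak was the usual case and these counts do not bear on the cell type.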

How the data were processed

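RNA immunoprecipitated with anti-HuR antibody or mouse IgG from MDA-MB-231 cells was sequenced in 2 samples each, grouped by the antibody in the labels. Per the labels and the methods, the authors mapped reads to hg38 with STAR, called peaks with HOMER and compiled those with a significant change in transcript abundance. Versions, settings, thresholds and pooling of replicates are not given in the sources used here. The methods name ANNOVAR for annotation, whereas the file header holds a HOMER annotation command. The deposited peak score is HOMER's own score, and the deposited focus ratio is a fraction. The depth of each library is unknown. Extension or shifting of reads before peak calling would move windows, and with them their class, so windows were also placed 173 bp back and forward.

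Host genes came from RefSeq transcripts, matched for 13835 of 13929 peaks with a transcript. Canonical exons came from GENCODE 44 on hg38, the build of the list, and 13711 peaks had a host gene there. Coordinates are 1-based. Sequences were read from hg38. The promoter of ELAVL1 and some members of the gene lists are not reported here, and the lists were counted without them. The planned edgeR test of counts was not run, because the list holds no counts. ELAVL1, the gene lists and the placements were chosen with earlier results of these data known. Genes named were ELAVL1, members of the lists, genes that the gene column gave to its peaks, the marker genes, 3 genes compared and the 3 genes with the smallest Euclidean distance in class shares. Intervals were Wilson, exact binomial or exact Poisson at 95%. Functions were tested on simulated data. Python 3.11.15, numpy 2.4.6, pandas 2.3.3, scipy 1.17.1, pysam 0.24.0 and matplotlib 3.10.9 were used.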

Additional observations from a re-analysis of the deposited data

How the results depend on the processing

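For 6 results, 21 alternatives were run, and 11 of them moved a count by less than 1.5 times or a share by less than its interval. Several of these could not have changed, so the tally does not measure robustness. All 11 ELAVL1 peaks were at or above the list median, so a filter at the median kept the same peaks. ELAVL1 had 11 peaks, but 5 by the gene column and 6 with 1 peak per merged locus. The share of the summed score in the 3′-UTR, 35.6% (Wilson 95% interval on steps 35.0 to 36.3%), was 31.8% with 1 peak per locus and 21.6% without the highest peak. Each of these settings drops 1 of the 2 peaks of the 3′-UTR. The interval of this share covers counting error only, and only if 1 step is 1 read, so it does not measure the spread between peaks or replicates. The share was the same with the windows moved either way. A shift of 173 bp could neither take the 3′-UTR peaks out of the 3′-UTR nor bring another ELAVL1 peak into it. The rank of 63 became 241 by number of peaks, 115 by summed score per kb of exon and 200 by the gene column. Of the 2 peaks in the 3′-UTR, 1 was on the strand of the gene, against 6 of all 11 peaks. A count over 2 peaks could not have come within 1.5 times of 6. Windows in the 3′-UTR with a motif were 0 for ATTTA, 2 for TTTTT and 1 for ATTTA in the windows moved back. Placement by the canonical transcript was added after seeing the data.

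No paired analysis was possible because each peak has a single score, which names no sample. The planned test of HuR against IgG, the replicate block and leaving out each replicate therefore were not run, and errors between replicates are unknown.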
